A study of Mus musculus with 17 samples.

Results

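The non-clustered protocadherins are cell adhesion proteins of the cadherin superfamily that are encoded by single genes spread over the genome, unlike the clustered protocadherins. The 10 genes described here, Pcdh1, Pcdh7, Pcdh8, Pcdh9, Pcdh10, Pcdh15, Pcdh17, Pcdh18, Pcdh19 and Pcdh20, were found by symbol in each of the 3 deposited count tables, out of 25239 genes per table. They were proposed with one result in view, a lower level of Pcdh19 in the orbitofrontal cortex than in the medial prefrontal cortex, so the members' values from that contrast are given as a description, with no p-value.

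The study sequenced bulk RNA from the brain of DAT-cre mice, which carry Cre recombinase under control of the dopamine transporter gene. This drives Cre in dopamine neurons of the midbrain and not in the cortical cells sampled here, and all 6 groups carry it. The animals went through oDASS, optogenetic dopamine neuron self-stimulation, and the submitters class them as perseverer (addicted) or renouncer (non-addicted). Imprints, taken of the orbitofrontal cortex (OFC) ahead of oDASS, number 3 for renouncers and 2 for perseverers. Dissections, taken once oDASS was over, number 3 for each phenotype in the OFC and 3 for each phenotype in the medial prefrontal cortex (mPFC). No animals that never went through oDASS, and none without Cre, were analysed here. Age and sex are not given in the labels, and nothing there ties each replicate to an animal of its own. The p-values therefore measure the spread between these samples, which may be technical.

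Total counts were 12392731 to 20945108 in the dissections and 8960549 to 10662666 in the imprints. Haemoglobin genes took 0.0253% to 0.0787% of the counts in the dissections and 29.7% to 90.7% in the imprints, which left 980475 to 6556037 other counts in an imprint. Renouncer imprint 1 is the library with 29.7%. The dissections carried the RNA of cortical excitatory neurons, with Slc17a7, the vesicular glutamate transporter of these cells, at 1222 to 1809 CPM. The choroid plexus marker Ttr did not exceed 9.35 CPM in any dissection. Levels are CPM, each library's counts set relative to its total after TMM scaling over the 17 libraries, and levels are compared between genes only per kilobase of the gene length in the tables (CPM per kb).

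Non-clustered protocadherins have an extracellular part made of cadherin repeats, which binds weakly to the same protein on a neighbouring cell, and a cytoplasmic tail that signals. They are grouped as δ1 members (Pcdh1, Pcdh7, Pcdh9 and Pcdh11x) and δ2 members (Pcdh8, Pcdh10, Pcdh17, Pcdh18 and Pcdh19), and the tails of several δ2 members bind the WAVE complex, which drives branching of actin. In the cortex they are known for sorting of neurons, axon outgrowth and the building and removal of synapses. Variants of the human gene PCDH19 cause an epilepsy with clustered seizures. Pcdh15 stands apart as a component of the tip link of inner ear hair cells.

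The sequence just before the transcription start is shown for Pcdh19, Pcdh17 and Pcdh8, the members with the lowest OFC levels relative to mPFC, so that the letters of their promoters can be seen beside their levels. Sequences are from RefSeq (GRCm38.p6), 5′ to 3′ on the strand of the gene, and capitals mark matches of GGGCGG (the Sp1-type GC box), CCAAT or TATAAA on either strand. The printed part of the Pcdh19 window lies at chrX:133689045-133689243 on the minus strand. The Pcdh17 window lies at chr14:84443313-84443562 on the plus strand and the Pcdh8 window at chr14:79771313-79771562 on the minus strand. The Pcdh19 run is 199 bases because RefSeq places the other 51 bases of its window inside the gene.
Pcdh19: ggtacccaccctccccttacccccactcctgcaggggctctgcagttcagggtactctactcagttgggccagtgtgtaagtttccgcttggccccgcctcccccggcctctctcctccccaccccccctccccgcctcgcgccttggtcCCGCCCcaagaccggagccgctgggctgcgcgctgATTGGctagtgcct
Pcdh17: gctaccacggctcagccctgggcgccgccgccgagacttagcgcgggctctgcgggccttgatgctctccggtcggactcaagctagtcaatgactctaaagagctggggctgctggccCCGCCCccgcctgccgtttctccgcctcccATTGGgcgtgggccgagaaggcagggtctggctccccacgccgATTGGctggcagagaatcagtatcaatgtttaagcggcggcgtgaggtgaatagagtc
Pcdh8: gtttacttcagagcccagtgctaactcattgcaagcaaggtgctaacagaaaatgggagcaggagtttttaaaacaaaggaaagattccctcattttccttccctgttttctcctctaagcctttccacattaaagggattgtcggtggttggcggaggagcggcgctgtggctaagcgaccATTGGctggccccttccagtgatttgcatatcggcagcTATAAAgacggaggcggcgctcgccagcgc

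Motifs were searched in the 250 bases before each start, on both strands, in 32526 windows of the RefSeq table, where 9 of the 10 members matched. CCAAT occurred in 33.8% of all windows and in those of 8 members, the exception among those matched being Pcdh7. GGGCGG occurred in 33.0% of all windows and in those of Pcdh10, Pcdh17, Pcdh18 and Pcdh19. TATAAA occurred in 12.3% of all windows and in those of Pcdh8 and Pcdh15. The Egr-type motif GCGNGGGCG occurred in 4.74% of all windows and in that of Pcdh17, where it overlaps the GC box. The cyclic AMP response motif TGACGTCA occurred in 1.56% of all windows and in 0 of those of the members. Over the full 250 bases, GC content was 69.2% for Pcdh19, 64.8% for Pcdh17 and 51.2% for Pcdh8, against a median of 52.4% over all windows. For Pcdh19 this includes the bases that are not printed. The windows of Pcdh7, Pcdh9 and Pcdh15 lie wholly inside the outer span of the gene. Those of Pcdh18 and Pcdh19 reach into it by 67 and 51 bases. These matches describe letters only.

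The members are spread over several chromosomes. Pcdh8 (chr14:79766772-79771312), Pcdh17 (chr14:84443563-84537565), Pcdh20 (chr14:88464743-88471396) and Pcdh9 (chr14:93013700-93892834) lie on the same chromosome, Pcdh10 and Pcdh18 on chromosome 3, and Pcdh19 (chrX:133582860-133689044) on the X chromosome. Gene spans run from 4541 bases for Pcdh8 to 1553555 bases for Pcdh15. Because the libraries do not keep the strand, reads from a shared exon cannot be assigned to one gene. Pcdh7 shares 21.1% of its exon bases in GENCODE M21 with 4932441J04Rik and Pcdh8 shares 9.61% with Gm9748, so these levels are less certain, while the shared part was at most 0.969% for the other members.

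All 10 members were detected in every dissection, with 20 or more reads each. In bulk tissue, fewer cells of a type and less RNA per cell cannot be told apart. Per kilobase, Pcdh8, a δ2 member known as arcadlin whose transcript is induced by neuronal activity, was the highest member in the mPFC at 28.6 ± 10.7 CPM per kb (SD, n = 6). Pcdh9, a δ1 member, followed at 15.6 ± 3.22 and Pcdh7, the δ1 member also called NF-protocadherin, at 8.79 ± 2.19. In the OFC the order at the top was different, with Pcdh9 at 18.1 ± 2.85 CPM per kb, Pcdh8 at 11.5 ± 3.93 and Pcdh7 at 10.1 ± 1.35 (SD, n = 6). Pcdh8 and Pcdh9 thus stood in opposite order in the 2 regions, and they were separated by more than their SDs in the renouncers of both regions but not in the perseverers.

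A middle group followed in which neighbours were mostly not separated. Pcdh10, known for its part in the removal of synapses downstream of the transcription factor Mef2, was at 7.55 ± 0.614 CPM per kb in the mPFC and 6.06 ± 0.561 in the OFC. Pcdh20 was at 6.56 ± 1.71 and 4.98 ± 1.31, Pcdh17, known from presynaptic terminals of corticobasal ganglia circuits, at 6.89 ± 0.609 and 3.81 ± 0.645, and the δ1 member Pcdh1 at 5.34 ± 1.35 and 5.14 ± 1.23. The length used for Pcdh1 was 3902 bases, beside 8797 exon bases in GENCODE M21. For Pcdh10 these were 11797 and 15888, for Pcdh17 9509 and 12991 and for Pcdh15 15987 and 23773. The place of these members in the order, also of Pcdh1 relative to the lowest members, thus depends on the length taken. With the lengths used, the 3 lowest members were each separated from the next by more than the SDs in all 4 dissection groups. They kept the same order, Pcdh19 above Pcdh18 above Pcdh15. In the mPFC these were 3.54 ± 0.758, 1.24 ± 0.475 and 0.230 ± 0.0930 CPM per kb. The highest member exceeded the lowest 87.0-fold to 188-fold within a dissection group, and the 4 highest made up 70.3% to 73.8% of the members' summed level per kb.

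**Figure D1:**
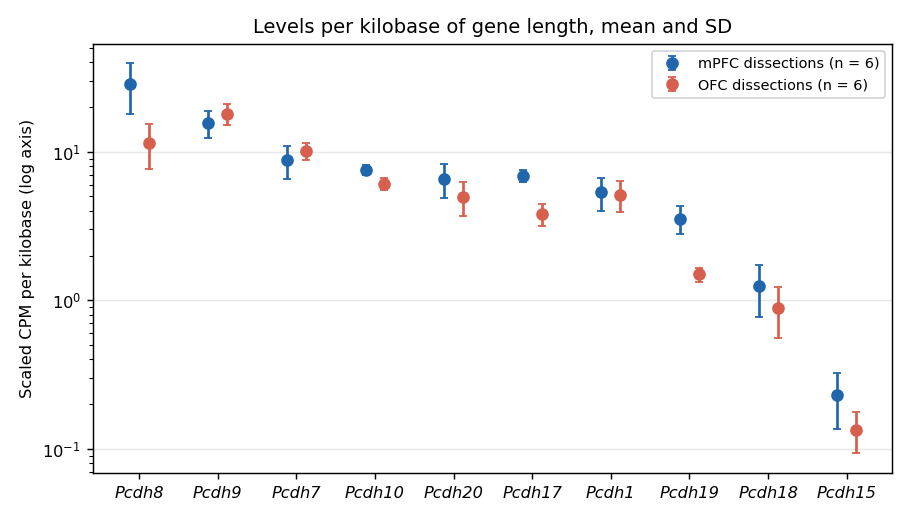
Mean level per kilobase of gene length, in CPM per kb on a log axis, for the 10 members in the 6 mPFC (blue) and 6 OFC (red) dissections, with bars of 1 SD. Pcdh8 is highest in the mPFC at 28.6 and Pcdh9 in the OFC at 18.1, and Pcdh15 is lowest in both.

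The coefficient of variation between replicates of a dissection group was 2.89% to 12.4% for Pcdh10, 20.3% to 48.7% for Pcdh8 and 32.0% to 49.1% for Pcdh18, the least abundant δ2 member. Which member varied least or most differed between the groups. Pcdh8 ranged from 30.3 to 188.7 CPM over the 12 dissections, while Pcdh10 ranged from 60.4 to 99.1 CPM.

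In the 12 dissections, with phenotype as a term, 8 of the 10 members had a lower fitted level in the OFC and 2 a higher one. The median log2 fold change of the members was -0.43, beside -0.0011 over the 14409 genes tested. As a count only, 3 members (Pcdh19, Pcdh17 and Pcdh8, all lower in the OFC) were among the genes past an adjusted p of 0.05, which were 1.85% of all genes, 0.909% lower and 0.937% higher in the OFC. Since the members were proposed from this contrast, the count is no test of them and nothing is read from it.

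Pcdh19, which binds N-cadherin, had 12.8 CPM in the lowest, a median of 15.5 and 17.3 in the highest of the 6 OFC dissections. In the mPFC the lowest was 28.5, the median 36.1 and the highest 49.6 CPM. The regions do not overlap, and every mPFC library lay above every OFC library. The mean was 2.36 times as high in the mPFC, 2.29 times in renouncers and 2.43 times in perseverers, and the fitted log2 fold change of OFC against mPFC was -1.24 ± 0.14 (approximate SE).

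Pcdh17 had 26.3, 36.8 and 44.4 CPM as lowest, median and highest in the OFC. In the mPFC these were 58.4, 66.8 and 72.2 CPM. This gene too showed no overlap between regions, and its log2 fold change was -0.86 ± 0.12. Among all genes tested, 0.729% were lower in the OFC without overlap.

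Pcdh8 had 30.3, 40.9 and 73.5 CPM as lowest, median and highest in the OFC and 70.8, 115.3 and 188.7 CPM in the mPFC. Its log2 fold change was the largest in size of the 10, at -1.30 ± 0.23, and the regions overlapped by 1 OFC perseverer library at 73.5 CPM. The highest library of each region was a perseverer library, and so was the lowest OFC library.

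The other members stood closer together between the regions. Pcdh10 had 60.4 to 79.4 CPM in the OFC and 77.5 to 99.1 in the mPFC, with a log2 fold change of -0.32 ± 0.10. Pcdh15 (-0.74 ± 0.29), Pcdh18 (-0.47 ± 0.30) and Pcdh20 (-0.38 ± 0.18) were lower in the OFC on average, each with overlap. Pcdh1 was close to 0 at -0.06 ± 0.17. The δ1 members Pcdh7 (0.20 ± 0.14) and Pcdh9 (0.21 ± 0.13) had small positive values.

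**Figure D2:**
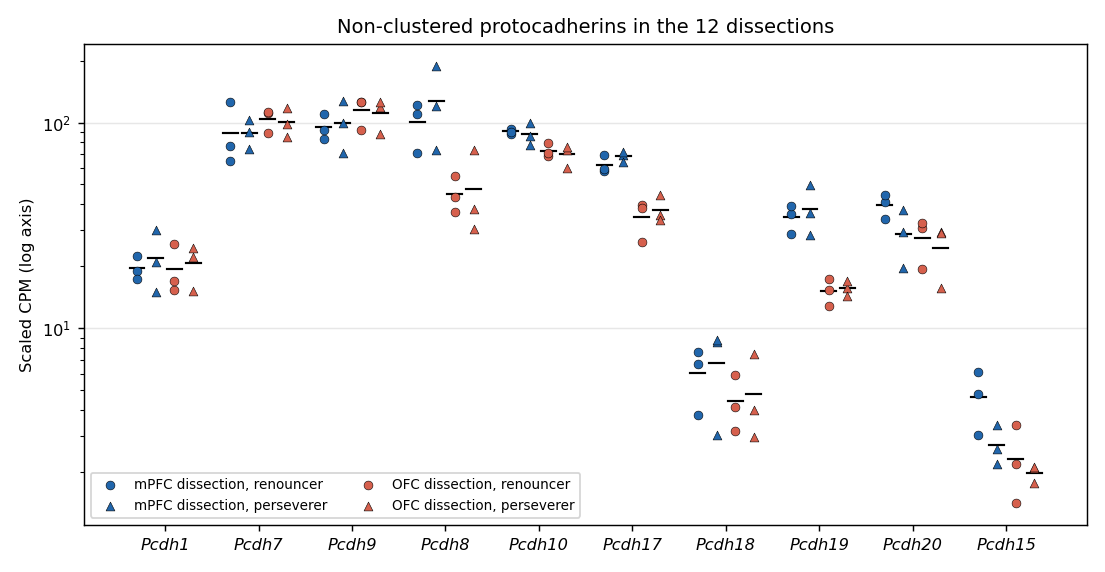
CPM of each member in the 12 dissections on a log axis: blue mPFC, red OFC, circles renouncers, triangles perseverers, bars group means. All 6 mPFC libraries lie above all 6 OFC libraries for Pcdh17 and Pcdh19, and phenotypes within a region lie among each other.

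Within renouncers, 5 members (Pcdh8, Pcdh10, Pcdh17, Pcdh19 and Pcdh20) were lower in all 3 OFC than in all 3 mPFC libraries, which 5.75% of genes also were. Within perseverers the 5 were Pcdh8, Pcdh10, Pcdh15, Pcdh17 and Pcdh19, beside 5.68% of genes. In perseverers 3 of the margins were narrow. That of Pcdh8 was from 73.5 CPM in the highest OFC to 73.8 CPM in the lowest mPFC library, that of Pcdh10 from 76.1 to 77.5 CPM and that of Pcdh15 from 2.11 to 2.20 CPM.

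Cell type markers moved with the regions in part. The 6 oligodendrocyte markers summed to 5780 to 19292 CPM in the OFC and 2082 to 8110 CPM in the mPFC, with all 6 fitted values positive and 0 past the threshold. Mbp, a myelin protein, was at 3581 to 13086 CPM in the OFC and 1161 to 4882 in the mPFC. Gfap, Rspo1, Pcp4 and Ppp1r1b, markers of astrocytes, layer 4, layer 5 and striatal neurons, were past the threshold and higher in the OFC. Their lists were mixed, with positive fitted values for 5 of 6 astrocyte, 3 of 4 layer 4, 1 of 4 layer 5 and 3 of 7 tested striatal genes. The summed excitatory neuron markers overlapped, with 3125 to 4770 CPM in the OFC and 2880 to 6263 in the mPFC. Their part in the levels of the protocadherins was not tested.

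The genes most like Pcdh19 over the 12 dissections were ranked by the root mean square difference of log2(CPM + 0.5), each gene centred on its own mean, among 13956 genes with a mean of at least 1 CPM. The 5 closest were Klf5, a transcription factor, at 0.161, Pkp2, a plakophilin of cell junctions, at 0.212, Amigo2, a neuronal adhesion protein, at 0.230, Atp2b4, a calcium pump, at 0.255 and Gpc3, a glypican, at 0.265. The median over all genes was 0.698. Klf5 had 6.75 ± 1.27 CPM in the OFC and 14.8 ± 3.60 in the mPFC (SD, n = 6). Of the other members, Pcdh17 had rank 21 at 0.312 and Pcdh8 rank 58 at 0.355, while Pcdh9 and Pcdh7 had ranks 8298 and 8431. The measure is dominated by the regional difference for which Pcdh19 was chosen, and it is a description.

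Perseverers and renouncers were compared after oDASS within each region. In the OFC, 0 of the 10 members and 0.0% of 14621 genes were past the threshold with edgeR, and DESeq2 and limma voom also called 0. At an unadjusted p under 0.05 there were 377 genes and 0 members. The members' log2 fold changes, perseverer against renouncer, were 5 positive and 5 negative with a median of 0.01. Pcdh19 was at 17.3, 12.8 and 15.3 CPM in the renouncers and 15.7, 16.9 and 14.3 in the perseverers, a log2 fold change of 0.06 ± 0.18. The groups lay among each other. The value furthest from 0 in the OFC was that of Pcdh15, at -0.21 ± 0.40. The groups overlapped for all 10 members, while 9.2% of genes did not overlap.

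In the mPFC, 0 of the 10 members and 0.0% of 14375 genes were past the threshold with edgeR, and again 0 with DESeq2 and limma voom. There were 639 genes and 0 members at an unadjusted p under 0.05. Of the members, 7 had a positive and 3 a negative value, with a median of 0.11. Pcdh20 had 41.3, 44.3 and 34.1 CPM in the renouncers and 29.2, 37.5 and 19.6 in the perseverers. Its log2 fold change of -0.47 ± 0.24 had the smallest p of the members (adjusted p = 0.943, edgeR). A single perseverer library at 37.5 CPM lay above the lowest renouncer library. Pcdh15 had 3.01, 4.78 and 6.11 CPM in the renouncers and 2.58, 2.20 and 3.37 in the perseverers, a value of -0.74 ± 0.44 (adjusted p = 0.943, edgeR). Pcdh8 was at 0.34 ± 0.30, and Pcdh19, with 28.8, 36.1 and 39.3 CPM in renouncers and 36.2, 49.6 and 28.5 in perseverers, at 0.14 ± 0.23. All 10 overlapped, beside 11.2% of genes that did not.

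Whether the difference between phenotypes differed between the regions was tested as an interaction. With edgeR, 0 members and 0.0% of 15025 genes passed, DESeq2 and limma voom also called 0, and 225 genes but 0 members had an unadjusted p under 0.05. Pcdh15, at 0.55 ± 0.58, and Pcdh20, at 0.33 ± 0.37 on the log2 scale, had the smallest p-values of the members (adjusted p = 1.0 for both, edgeR).

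Before oDASS, the imprints of the OFC held few reads of the members. Outside renouncer imprint 1, which had 33 reads of Pcdh19 and 1450 of Pcdh9, an imprint had 1 to 8 reads of Pcdh19 and 17 to 98 of Pcdh9. Pcdh18, Pcdh19 and Pcdh20 did not pass the low-count filter among the imprints, so 7 members were tested between phenotypes. With edgeR, 0 of the 7 and 0.0% of 10530 genes passed, DESeq2 and limma voom also called 0, and 181 genes but 0 members had an unadjusted p under 0.05. All 7 log2 fold changes were negative, with a median of -1.01 beside -0.03 over all genes tested. In the same comparison 0 of 5 excitatory neuron markers had a positive value (median -0.74) and 0 of 6 astrocyte markers did (median -0.35), and 0 of either list passed. Other lists were mixed, among them oligodendrocyte (3 of 6 positive, median 0.06), microglia (3 of 6, median -0.07), layer 5 (3 of 4, median 0.01) and inhibitory neuron markers (1 of 5 tested, median -0.48). Summed excitatory markers were 1992 to 2922 CPM in renouncer and 1311 to 1785 CPM in perseverer imprints. Their part in the members' values was not tested.

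Pcdh17 had 59.2, 26.0 and 63.9 CPM in the 3 renouncer imprints and 17.4 and 20.9 CPM in the 2 perseverer imprints. On this scale it was the single member whose groups did not overlap, and 7.45% of genes lay lower in perseverers without overlap. As CPM outside the haemoglobin genes, Pcdh17 was at 56.9, 9.04 and 36.0 in renouncers and 13.0 and 8.16 in perseverers, which overlap. On that scale Pcdh7 did not overlap, with a lowest renouncer value of 27.1 (27 reads) and a highest perseverer value of 26.5 (26 reads). The share of all genes without overlap on that scale was not computed. The log2 fold change of Pcdh17 was -1.43 ± 0.72 (adjusted p = 1.0, edgeR). Pcdh9 had 230.3, 49.1 and 160.6 CPM in renouncers and 57.4 and 93.9 in perseverers, a value of -1.01 ± 0.65. The groups overlap through renouncer imprint 2, and the value was -0.48 without renouncer imprint 1. Pcdh15, at -2.33 ± 1.63, was at 0 reads in perseverer imprint 2, where a count of 0 allows up to 7.83 CPM (3 reads, counting error only). Its value rests on few reads and was -7.59 without perseverer imprint 1, where the fitted fold is no bound, and -1.56 without perseverer imprint 2. As an interaction with the way of collection, the difference for Pcdh17 was -1.58 ± 0.59 (unadjusted p = 0.0183, adjusted p = 0.514, edgeR) and that for Pcdh15 -2.03 ± 1.13 (adjusted p = 0.617, edgeR), with -9.91 to -1.46 when 1 library was left out, the extremes being without perseverer imprints 1 and 2. With edgeR, 0 members and 0.0% of 15229 genes passed this interaction test, 1 member and 1336 genes had an unadjusted p under 0.05, limma voom called 0 genes and DESeq2 called 73 genes and 0 members.

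**Figure D3:**
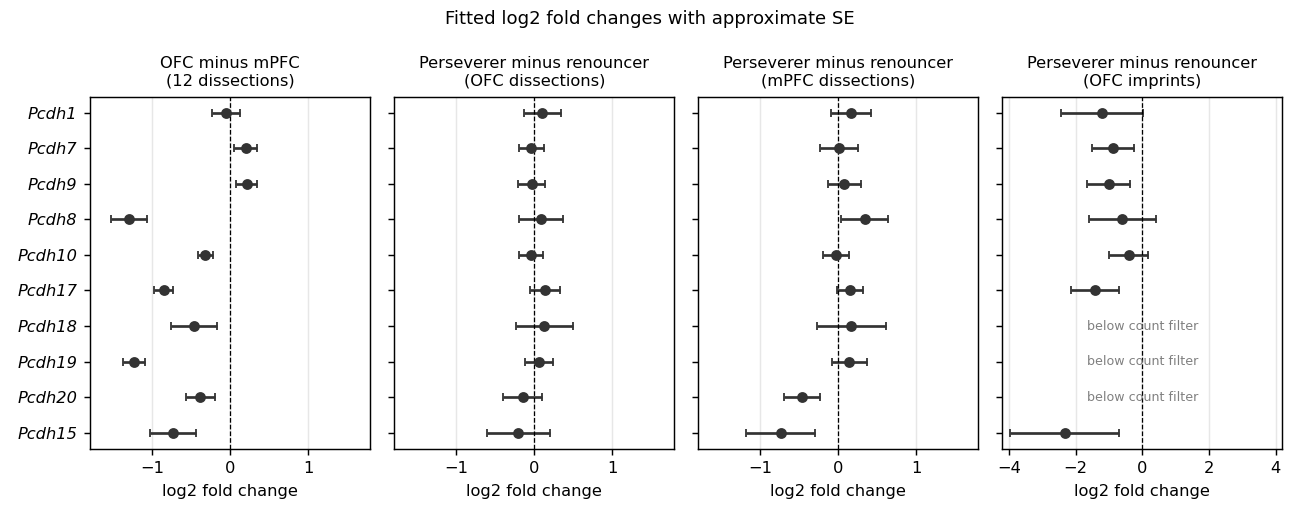
Log2 fold changes of the members with approximate SE bars: OFC against mPFC in the first panel and perseverer against renouncer in the others, the last on a wider axis. The values of the region panel reach -1.30, those of the OFC dissections stay within -0.21 to 0.14, and the 7 imprint values are all negative with wide bars.

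Imprints before oDASS were set against OFC dissections after it, with phenotype as a term. Stage and way of collection coincide and cannot be told apart, and this comparison shares the OFC dissections with the one between regions. With edgeR, 3 of the 10 members were past the threshold beside 33.1% of 14236 genes, so that the members' share is close to that of all genes. Pcdh15 was higher in the imprints, as 15.6% of genes were, and Pcdh20 and Pcdh8 were lower, as 17.5% were. The members had 5 positive and 5 negative values with a median of -0.22, beside -0.13 over all genes tested.

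Pcdh20, the member with the largest change, had 15.6 CPM as its lowest, 29.1 as its median and 32.5 as its highest value in the OFC dissections. The imprints were at 10.3, 2.89 and 0 CPM in renouncers and 4.10 and 0 in perseverers, where a count of 0 allows up to 4.92 and 7.83 CPM. All imprints lay below all dissections, and the log2 fold change was -2.35 ± 0.55 (adjusted p = 0.00337, edgeR). Of the 70 reads of Pcdh20 in the imprints, 65 came from renouncer imprint 1, and without that library the value was -3.48.

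Pcdh8 had 30.3 to 73.5 CPM in the dissections and 12.1, 20.2, 26.2, 8.20 and 18.3 CPM in the imprints. These did not overlap either, and the log2 fold change was -1.51 ± 0.37 (adjusted p = 0.00543, edgeR). Among all genes, 16.4% lay lower in every imprint than in every OFC dissection. Pcdh15 had 1.41 to 3.38 CPM in the dissections and 15.1, 2.89 and 18.0 CPM in the renouncer and 4.10 and 0 CPM in the perseverer imprints. It was higher in the imprints by 1.92 ± 0.59 on the log2 scale (adjusted p = 0.0191, edgeR). Renouncer imprint 1 held 95 of its reads and the other imprints 0 to 11, the groups overlap, and the call was lost without OFC renouncer dissection 1 (adjusted p = 0.0777) or 2 (adjusted p = 0.0720, edgeR).

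Pcdh19 was at 5.24, 23.1, 4.92, 7.17 and 2.61 CPM in the imprints beside 12.8 to 17.3 in the dissections. On this scale a single imprint, renouncer 2 with 8 reads and a TMM factor of 0.0324, lay above the dissections. As CPM outside the haemoglobin genes it was at 8.03, and all 5 imprints, at 1.02 to 8.03, lay below the dissections, at 12.9 to 17.5. The share of all genes that lay so on that scale was not computed, so nothing particular to Pcdh19 is read from it. The log2 fold change of Pcdh19 was -1.01 ± 0.48 (adjusted p = 0.115, edgeR), and without renouncer imprint 2 it was -1.48 (adjusted p = 0.00870, edgeR). Pcdh10 was at 0.51 ± 0.25 and Pcdh7 at -0.54 ± 0.28, neither past the threshold (adjusted p = 0.131 and 0.147, edgeR). Without renouncer imprint 2 the adjusted p of Pcdh10 was 0.0326, and without renouncer imprint 1 that of Pcdh7 was 0.0495. Pcdh9 (0.06 ± 0.33), Pcdh17 (0.04 ± 0.35), Pcdh18 (0.22 ± 0.82) and Pcdh1 (-0.48 ± 0.47) did not pass.

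**Figure D4:**
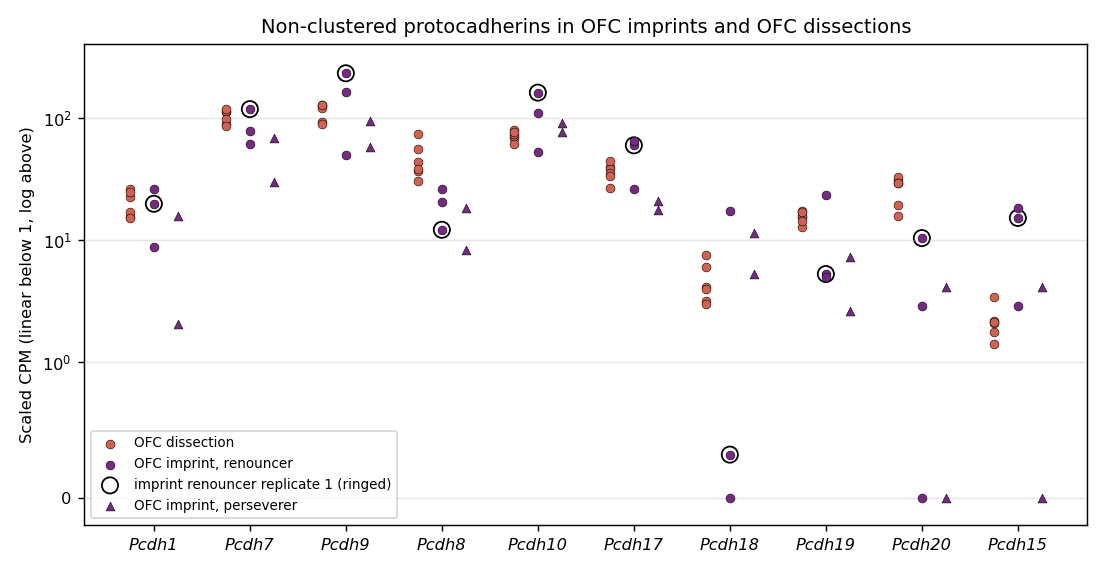
CPM of each member in the 6 OFC dissections (red) and the 5 OFC imprints (purple, circles renouncers, triangles perseverers), on an axis that is linear below 1 and logarithmic above, with renouncer imprint 1 ringed. Every imprint lies below every dissection for Pcdh8 and Pcdh20, and the imprints spread widely for Pcdh15, Pcdh18 and Pcdh19.

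Blood and cell type markers differed between the same libraries. The red cell list had 5 of 5 genes higher in the imprints and the microglia list 6 of 6, with summed microglia markers of 910.9 to 1919 CPM in the imprints and 606.1 to 828.6 in the OFC dissections. Of the neuronal lists, 4 of 5 excitatory and 5 of 6 inhibitory markers were lower. The summed excitatory markers were 1311 to 2922 CPM in the imprints and 3125 to 4770 in the dissections. The part of these differences in the protocadherin results was not tested. With the haemoglobin genes removed, the same count of 3 members was past the threshold.

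Genes that work with the protocadherins were followed as lists. Between the regions, 0 of 9 WAVE complex genes, 0 of 15 genes for other partners and processing, 0 of 4 tested tip link genes and 0 of 1 other non-clustered member (Pcdh11x) were past the threshold, with list medians of -0.01, -0.06, -0.11 and 0.13. Wasf3, at 0.45 ± 0.21 (adjusted p = 0.350, edgeR), and Mef2c, a transcription factor, at -0.46 ± 0.16 (adjusted p = 0.168, edgeR), had the smallest p of the WAVE and partner lists. In the OFC and the mPFC, 0 genes of these lists were past the threshold between phenotypes, as 0 were among all genes.

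Between imprint and dissection, 4 of 9 WAVE complex genes were lower in the imprints and 1 was higher. Of all genes, 17.5% were lower and 15.6% higher in the imprints. Nckap1 (-1.70 ± 0.28), Wasf1 (-1.77 ± 0.29), Cyfip2 (-1.02 ± 0.20) and Abi2 (-1.20 ± 0.22) were lower in the imprints. They are subunits of the complex that δ2 tails bind. Wasf2 was higher in the imprints by 3.57 ± 0.45 (edgeR). Among the partners, Mef2a, a transcription factor, was lower in the imprints by 1.03 ± 0.27 on the log2 scale. Adam10, a protease that sheds cadherins, was higher there by 0.996 ± 0.27 and the phosphatase subunit Ppp1cb by 3.02 ± 0.58. Of the 4 tested tip link genes, Lhfpl5 (-2.72 ± 0.83) and Myo7a (-1.82 ± 0.50) were lower in the imprints. The largest adjusted p among these genes was that of Lhfpl5, at 0.0189 (edgeR). Pcdh11x, a δ1 member outside the 10, was lower in the imprints by 1.41 ± 0.48 (adjusted p = 0.0311, edgeR). The list medians were -0.51 for WAVE, -0.36 for partners and -1.13 for the tip link, beside -0.13 over all genes.

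Of the tip link partners of Pcdh15, some were near 0 in the cortex. Cdh23, the cadherin that Pcdh15 binds there, was at 0.14 to 0.66 CPM in the OFC and 0.06 to 1.67 CPM in the mPFC dissections. Tmc2 and Ush1c did not exceed 0.20 and 0.07 CPM in any dissection. Cib2, at 36.6 ± 5.46 CPM in the OFC and 44.6 ± 7.85 in the mPFC (SD, n = 6), and Myo7a, at 24.9 ± 6.35 and 24.7 ± 15.8, were detected in every dissection. Pcdh12, a non-clustered member known from endothelial cells, had 0 reads in all mPFC dissections and all imprints and 13 reads over the 6 OFC dissections.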

How the data were processed

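Bulk RNA (Qiagen kit) went into SMART-Seq v4 and Nextera libraries, a chemistry that loses the strand, per the labels' protocols. The authors deposited 3 tables of raw counts per gene, covering 17 libraries, with a gene length in bases. FastQC 0.11.8 and build mm10 appear in the submitters' processing notes. Which aligner, counter and gene annotation were used is not given in the sources used here. The members and lists were chosen with earlier results of these data known.

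The main tests on counts used edgeR 4.0.16 under R 4.3.3 (filterByExpr, TMM scaling, robust quasi-likelihood fits, two-sided tests, Benjamini-Hochberg adjusted p under 0.05 over all genes tested). Each phenotype comparison was fitted within its own table. The regions were fitted over the 12 dissections and imprint against dissection over all OFC libraries, both adjusted for phenotype. Interactions are contrasts of group means. The SE beside a log2 fold change is its size divided by the square root of F, and is approximate. CPM use TMM factors over the 17 libraries, times 1 constant that gives the dissections a geometric mean factor of 1. Imprint factors were 0.0324 to 0.675. All 10 members are reported. List genes are named where past the threshold or among the 2 smallest p of their list, except for a gene that is not reported here. Fits were tested on simulated data. Alternatives were DESeq2 1.42.0, limma 3.58.1 (voom), RLE scaling, no filter, a stricter filter, the replicate number as a block, removal of the haemoglobin genes and leaving out each library. Positions are from RefSeq (GRCm38.p6).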

Additional observations from a re-analysis of the deposited data

How the results depend on the processing

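Pcdh20 and Pcdh8 were lower in the imprints than in the OFC dissections and past the threshold under every alternative run (largest adjusted p 0.0111 and 0.0200), with -3.48 to -2.08 and -1.76 to -1.28 when 1 library was left out. Between the regions, the log2 fold changes without 1 library were -1.30 to -1.12 for Pcdh19, -0.93 to -0.79 for Pcdh17 and -1.47 to -1.10 for Pcdh8, a description of the contrast that the members were proposed from. Of all genes tested, 1.85% were past the threshold between regions, against 4.80% with DESeq2 (691 genes), 7.97% with the replicate block (1148 genes) and 0.818% (without mPFC renouncer 2) to 3.25% (without mPFC perseverer 3) without 1 library. Members past the threshold between imprint and dissection numbered 5 of 10 with DESeq2 and 2 to 5 without 1 library. The share of all genes past it there was 33.1% in the main fit. That share was 24.6% to 40.8% over the other settings and 26.8% to 36.8% without 1 library. In the collection by phenotype interaction, 0.479% of genes (73) were past it with DESeq2 and 0.0% to 0.0251% without 1 library, the latter being 4 genes without perseverer imprint 2. With DESeq2, Pcdh19 (-0.98, adjusted p = 0.0286) and Pcdh10 (0.61, adjusted p = 0.0254) were past the threshold between imprint and dissection, and so was Pcdh10 with limma voom (0.72, adjusted p = 0.0417). The cause of these differences was not tested.

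Values near 0 changed sign. Between the regions, Pcdh1 ranged from -0.16 to 0.083 when 1 library was left out. Without 1 library, perseverer against renouncer in the OFC ranged from -0.033 to 0.36 for Pcdh1, -0.16 to 0.048 for Pcdh7, -0.37 to 0.31 for Pcdh8, -0.17 to 0.089 for Pcdh9, -0.13 to 0.060 for Pcdh10, -0.46 to 0.14 for Pcdh15, -0.023 to 0.24 for Pcdh17, -0.32 to 0.40 for Pcdh18, -0.043 to 0.16 for Pcdh19 and -0.34 to 0.077 for Pcdh20. In the mPFC it ranged from -0.10 to 0.37 for Pcdh1, -0.17 to 0.34 for Pcdh7, -0.029 to 0.61 for Pcdh8, -0.14 to 0.25 for Pcdh9, -0.15 to 0.063 for Pcdh10, -0.084 to 0.51 for Pcdh18 and -0.074 to 0.30 for Pcdh19, and in the imprints from -0.72 to 0.071 for Pcdh10. Imprint against dissection ranged from -0.19 to 0.27 for Pcdh9, -0.15 to 0.30 for Pcdh17 and -0.64 to 0.95 for Pcdh18. Without the low-count filter Pcdh9 was at -0.058 and Pcdh17 at -0.078 there, and with limma voom Pcdh18 was at -0.17.

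Replicate numbers were not taken to pair the samples, because the labels do not state that a number marks an animal. The sample codes of same-numbered OFC and mPFC libraries are, however, consecutive. Correlations were taken not of the levels themselves but of each library's deviations in log level from the mean of its own group. For same-numbered OFC and mPFC libraries this correlation was 0.25, -0.11 and 0.44 in renouncers and 0.23, 0.73 and 0.74 in perseverers. For different-numbered libraries it was -0.47 to 0.32 in renouncers and -0.73 to 0.33 in perseverers. Deviations within a group cancel, so a positive value for same-numbered libraries pushes those for different-numbered ones down. The main fits do not account for a possible pairing. With the replicate number as a block, 4 members (Pcdh10 in addition to those of the main fit) were past the threshold between regions, beside 7.97% of all genes. Between imprint and dissection 2 members were past it, beside 24.6% of all genes. The region count is again a description of the contrast that the members were proposed from. In that blocked fit Pcdh15 was at 1.65 (adjusted p = 0.186), Pcdh9 at -0.13 and Pcdh18 at -0.30 between imprint and dissection, and Pcdh8 at -0.0064 between phenotypes in the OFC. Of 5 genes most like Pcdh19, 4 remained with a pseudocount of 1. Depth limits the imprints most, where 1 to 8 reads carry Pcdh19 in all but renouncer imprint 1.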
